A study of Mus musculus with 3 samples.

Results

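The cells described here were neutrophils of lung grafts harvested 2 hours after reperfusion in which transcripts of 6 granule genes outnumbered transcripts of 5 activation genes. They were chosen by their own counts of unique molecular identifiers (UMIs), each UMI standing for 1 captured transcript. Droplets with more than 200 detected genes and under 10% mitochondrial UMIs were kept. A kept droplet was called a neutrophil when S100a8, S100a9, Il1b, Csf3r, Cxcr2 and Retnlg together held at least 2% of its UMIs and Cd79a, Cd3e and Ncr1, genes of B, T and NK cells, held none. A neutrophil was a member when its UMIs of Ngp, Camp, Ltf, Mmp8, Cd177 and Retnlg exceeded those of Cxcl2, Cxcl3, Ptgs2, Il1rn and Nlrp3. Of 10328 droplets in the 2-hour library, 10283 were kept, 4263 were neutrophils and 1245 were members, which was 29.2% of the neutrophils (exact 95% interval 27.8% to 30.6%). The other neutrophils were 2907 with more activation than granule UMIs and 111 with equal sums. All 3 libraries together held 22265 droplets.

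Left lungs of C57BL/6J (B6) mice carrying CD45.2 were transplanted into B6 recipients carrying CD45.1, after 60 minutes of storage at 4 °C and 45 minutes at 28 °C. Grafts were taken 2 hours or 3 days after reperfusion, and left lungs of naive B6 mice formed the third group. The mice were adults of either sex by the study's methods, and every library pooled the cells of 2 mice. The study describes sorted recipient (CD45.1) leukocytes, and it does not explain how that sort applied to naive lungs, which hold no recipient cells. There was 1 library per condition, so condition, mice, preparation and library cannot be told apart, no p-value was computed, and every interval covers counting error only. The 2-hour library was by far the shallowest. Kept droplets had a median of 878 UMIs at 2 hours, 7730 in naive lungs and 5797 at 3 days, from totals of 10749100, 28538529 and 70750470 UMIs over all droplets. The 2-hour and 3-day libraries shared 23 cell barcodes, of which 3 were members at 2 hours and 1 was a member in both, and the naive and 2-hour libraries shared 8, none of them a member.

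Neutrophils load their granules in a sequence as they mature in the bone marrow. Azurophil granules with myeloperoxidase and elastase come first, specific granules with lactoferrin and cathelicidin follow, and gelatinase granules and secretory vesicles come last, so the transcripts a circulating cell still holds depend on how recently those proteins were made. Neutrophils that meet inflammatory signals switch on chemokines and inhibitors under the control of the transcription factor NF-κB, whereas factors of the C/EBP family drive many granule genes. Early neutrophil entry is a well known feature of ischemia and reperfusion injury of the lung.

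The promoters of 3 granule genes and of the leading activation gene are shown because these genes supplied most of the counts that divided the cells. The sequences come from RefSeq on build GRCm38.p6 and cover the 250 bases before the annotated start of each gene on the plus strand. Capitals mark the C/EBP motif TTGCNNAA, on either strand, in the 3 granule promoters and an NF-κB motif, GGGA followed by any 4 bases and CC, on either strand, in Cxcl2. In Cxcl2 the matches of both strands overlap each other.
Ngp, chr9:110419558-110419807: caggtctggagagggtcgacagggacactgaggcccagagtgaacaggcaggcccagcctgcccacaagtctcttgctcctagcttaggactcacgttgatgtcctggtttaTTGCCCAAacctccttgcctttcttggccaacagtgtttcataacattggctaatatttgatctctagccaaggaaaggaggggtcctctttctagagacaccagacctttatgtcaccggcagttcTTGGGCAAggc
Mmp8, chr9:7558179-7558428: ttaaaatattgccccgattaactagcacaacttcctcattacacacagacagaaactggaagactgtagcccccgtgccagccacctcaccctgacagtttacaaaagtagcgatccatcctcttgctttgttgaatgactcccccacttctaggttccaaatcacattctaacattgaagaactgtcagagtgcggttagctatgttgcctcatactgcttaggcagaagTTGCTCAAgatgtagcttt
Retnlg, chr16:48872358-48872607: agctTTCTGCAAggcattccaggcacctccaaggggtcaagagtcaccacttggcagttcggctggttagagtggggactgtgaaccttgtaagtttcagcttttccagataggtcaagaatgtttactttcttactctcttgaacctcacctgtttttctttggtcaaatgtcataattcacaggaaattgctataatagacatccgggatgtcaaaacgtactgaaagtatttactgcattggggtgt
Cxcl2, chr5:90903649-90903898: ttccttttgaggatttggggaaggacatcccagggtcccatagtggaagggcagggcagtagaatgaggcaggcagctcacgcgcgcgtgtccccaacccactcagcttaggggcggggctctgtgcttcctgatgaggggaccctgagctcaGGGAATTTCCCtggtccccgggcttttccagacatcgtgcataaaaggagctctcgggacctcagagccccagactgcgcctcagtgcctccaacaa
All 11 granule and activation genes had at least 1 RefSeq promoter, taken as 300 bases of which 50 lay past the start. Il1rn had 3 and Nlrp3 had 2, and a gene was counted when any of its promoters matched, whereas the shares of all promoters are per promoter. The C/EBP letters were found for 4 of the 6 granule genes (Ltf, Mmp8, Ngp and Retnlg) and for 1 of the 5 activation genes (Ptgs2), against 10.8% of 32851 promoters of the same length. The NF-κB letters were found for Camp alone among the granule genes and for Cxcl2, Cxcl3, Il1rn and Nlrp3 among the activation genes, against 20.7% of all promoters. Il1rn and Nlrp3 each matched in 1 promoter. The PU.1 motif GAGGAAGT was found for Mmp8 alone, against 3.20%. These are matches of letters and were not tested as binding sites.

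The label of granule genes held only in part. Retnlg, which encodes resistin-like gamma, a secreted product of mouse neutrophils, supplied 84.4% of the members' granule UMIs. Mmp8, the neutrophil collagenase, supplied 10.5%, and Ngp, neutrophilic granule protein, 4.00%. Cd177, a surface glycoprotein of neutrophils, supplied 0.475%, Camp, the cathelicidin antimicrobial peptide, 0.325%, and Ltf, lactoferrin, 0.307%. The cells are therefore called Retnlg-led neutrophils here, and the 2907 cells on the other side of the rule Cxcl2-led neutrophils. These shares and the levels in the next paragraph were used by the rule and are given as description.

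Retnlg stood at 22361.5 counts per 1000000 UMIs (CPM) in the summed counts of the Retnlg-led cells and at 6085 CPM in the Cxcl2-led cells. Mmp8 stood at 2775 and 1004 CPM, and Ngp at 1060 and 70.7 CPM. Camp was low on both sides, at 86.0 CPM from 93 UMIs against 1.86 CPM from 5 UMIs, and Ltf stood at 81.4 and 14.9 CPM. On the activation side, Cxcl2, which encodes a chemokine that attracts neutrophils, stood at 6800 CPM in the Retnlg-led cells and at 24939.8 CPM in the Cxcl2-led cells. The Retnlg-led cells were thus not free of it: 79.7% of them held at least 1 Cxcl2 UMI, against 98.1% of the Cxcl2-led cells. The background was read in 2391 lymphocytes of the same library, which held a UMI of Cd79a, Cd3e or Ncr1 and under 2% of UMIs on the neutrophil genes. Of these, 8.11% held a Cxcl2 UMI, 5.14% a Retnlg UMI and 1.67% an Mmp8 UMI, at a median depth of 1013 UMIs against 755 in the members and 772 in the Cxcl2-led cells. The limit on neutrophil genes also caps Retnlg in these lymphocytes by definition. Ngp and Camp had 0 UMIs in the lymphocytes, which allows up to 1.06 CPM (3 counts over the class).

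**Figure D1:**
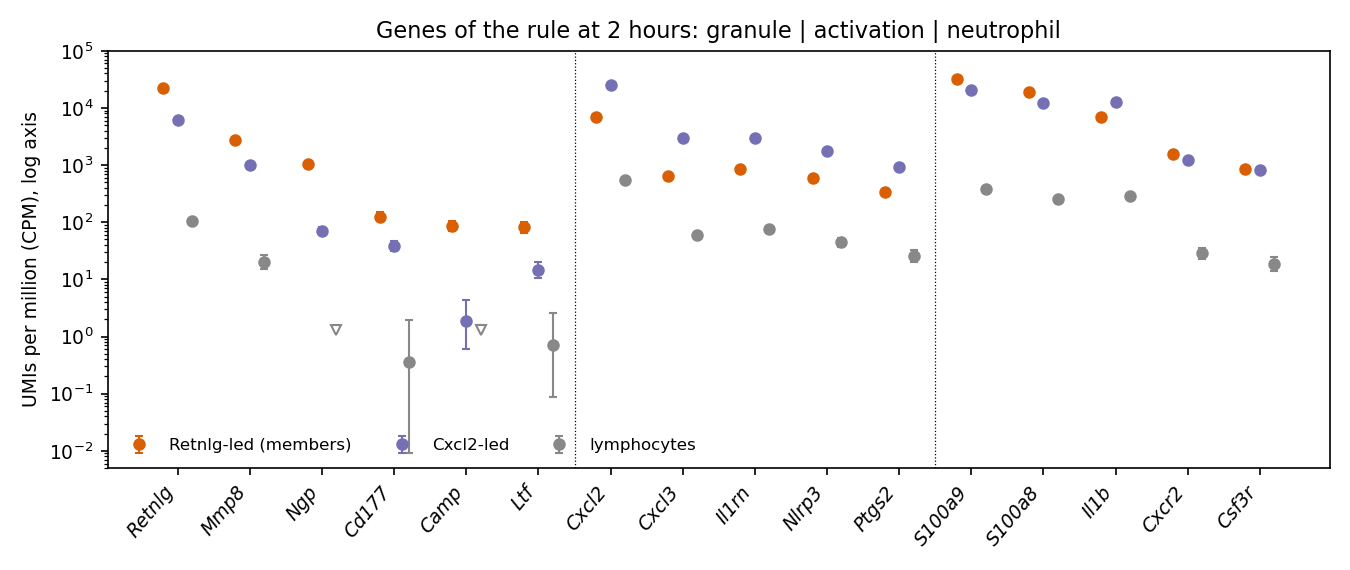
Summed level (CPM, log axis) of 16 genes of the rule in Retnlg-led neutrophils, Cxcl2-led neutrophils and lymphocytes of the 2-hour library. Bars are exact 95% Poisson intervals, and open triangles give the upper bound where a class had 0 UMIs. Retnlg, at 22361.5 CPM in the members, lay far above Camp and Ltf, at 86.0 and 81.4 CPM.

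Most Retnlg-led cells carried few of the 6 granule genes. A pair of them was detected in 715 members (57.4%), a single one in 251 (20.2%), and all 6 in 5. Retnlg was the only granule gene in 240 members (19.3%). A UMI of Ngp, Camp or Ltf was found in 268 members (21.5%, interval 19.3% to 23.9%), and 112 members held at least 3 such UMIs. Ngp itself was detected in 257 members, and 232 of these (90.3%) also held Mmp8, compared with 73.9% of the members without Ngp. Ngp was held by 27 of the 28 Camp-positive members, against 18.9% of the Camp-negative members. Of the 20 Ltf-positive members 10 held Ngp, against 20.2% of the Ltf-negative members. The rule used all of these genes, so their joint detection is description, and the part of depth in it was not tested. A single member contributed 27 of the 93 Camp UMIs and a single member 35 of the 88 Ltf UMIs.

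The division itself had no gap. The granule share of each cell's granule and activation UMIs ran over the whole range, with 7.14% of the 4258 neutrophils that held any of these UMIs between 40% and 50%, and 7.91% between 50% and 60%, where cells with equal sums were placed. The median member held 18 granule and 6 activation UMIs. The granule sum exceeded the activation sum by 1 UMI in 96 members (7.71%), equalled it in 111 neutrophils, and fell short by 1 UMI in 120. Among cells with more granule than activation UMIs, 14 lay just outside the neutrophil threshold, with 1.5% to 2% of UMIs on the neutrophil genes, and 16 lay just inside, with 2% to 2.5%. Activation UMIs were absent from 105 members (8.43%).

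**Figure D2:**
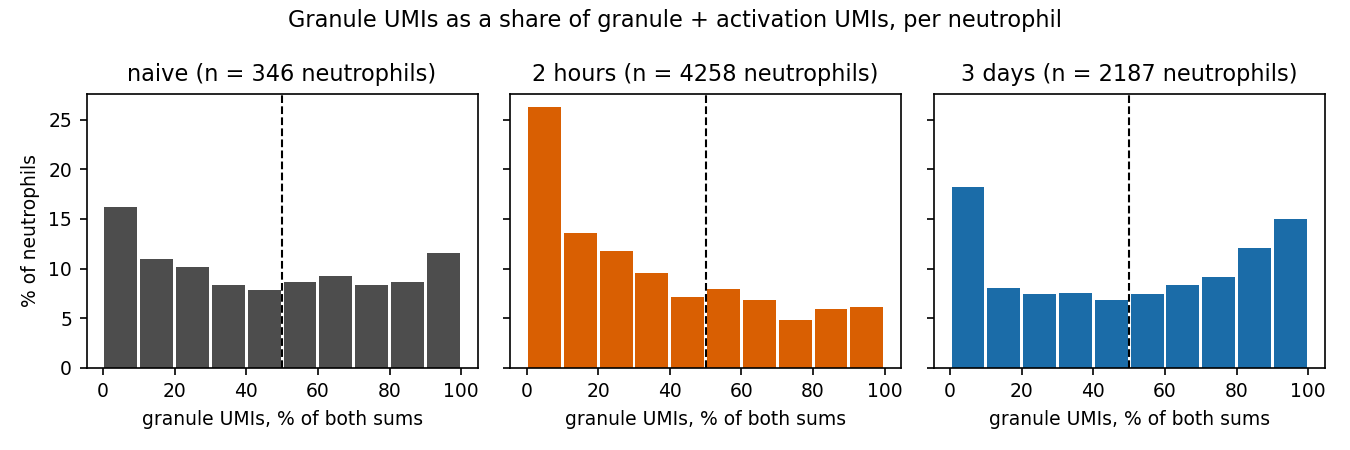
Percent of neutrophils (vertical axis) by the share of granule UMIs among their granule and activation UMIs (horizontal axis, in steps of 10%) in the naive, 2-hour and 3-day libraries. The dashed line marks equal sums, which are counted in the bar from 50% to 60%. The 2-hour cells pile up at the left end, with 26.3% below 10%, and no library has an empty stretch near the line.

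Outside the granule and activation genes, the Retnlg-led cells held transcripts of mature neutrophils and almost none of precursors. S100a9 and S100a8, the calprotectin subunits used to call neutrophils, stood at 31691 and 19160 CPM. Hdc, histidine decarboxylase, was detected in 90.3% of members, Mxd1, a MYC antagonist, in 92.6%, and Il1r2, a decoy receptor for interleukin-1, in 78.2%. In lymphocytes of the same library these shares were 5.48%, 21.8% and 4.14%, at a median depth of 1013 UMIs against 755. Hdc, Mxd1 and Il1r2 are examples from a longer list of neutrophil genes. Ly6g, also on that list, had only 83 UMIs over all 1245 members (76.7 CPM). Genes of azurophil granules and their precursors (Mpo, Elane, Prtn3, Ctsg, Ms4a3, Fcnb, Cebpe and Gfi1) summed to 5 UMIs over all 1245 members, and 10 proliferation genes to 12 UMIs. The most abundant transcripts were Actb (57442 CPM), Gm42418, which overlaps a ribosomal RNA repeat, Malat1, S100a9, Fth1, Retnlg and S100a8. Mitochondrially encoded genes were low, at a median of 0.236% of UMIs per member.

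Most marker lists of other cell types were low in the Retnlg-led cells. Selection partly set the comparison with lymphocytes, since members held no UMI of Cd79a, Cd3e or Ncr1 and every lymphocyte held at least 1. The epithelial markers were an exception at 1916 CPM, and Scgb1a1, taken up below, supplied 2068 of their 2073 UMIs. The 8 classical monocyte markers summed to 523 CPM in the members and 429 CPM in the Cxcl2-led cells, led by Cd74, with F13a1 and Vcan at 0. In the lymphocytes, which also express Cd74, they summed to 7965 CPM. A UMI of these monocyte markers was held by 251 members (20.2%) and 512 Cxcl2-led cells (17.6%). The 8 macrophage markers summed to 149 and 204 CPM, and C1qa, C1qb, C1qc, Mrc1 and Marco were at 0, where 0 of 1245 cells allows up to 0.241% of cells with a UMI (3 counts), which does not limit the share of cells expressing the gene. The 8 B cell markers summed to 172 and 140 CPM, against 3634 CPM in the lymphocytes. The 8 T cell markers summed to 173 CPM in the members and 87.1 CPM in the Cxcl2-led cells, from 187 UMIs in 44 members (3.53%), led by Il7r, against 2897 CPM in the lymphocytes. None of the 5 basophil and mast cell markers was detected, and the 6 dendritic cell markers summed to 30.5 CPM. Scrublet, which calls droplets that resemble simulated mixtures of cells, called 35 members (2.81%) and 57 Cxcl2-led cells (1.96%). The part of these markers in the differences given next was not tested.

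Between the Retnlg-led and the Cxcl2-led cells of the 2-hour library, 4663 genes outside the rule had at least 50 UMIs over both classes. Of these, 39 (0.836%) were more than 2-fold higher in the Retnlg-led cells and 62 (1.33%) more than 2-fold lower, on log2 ratios of CPM plus 10. The counts were 110 and 118 with 1 CPM added instead, 4 and 23 with 50 CPM, and 122 and 187 without Retnlg in the granule sum. The rule divided these cells by their own counts, so these ratios describe the groups and are not a test. The highest ratio belonged to Scgb1a1, the secretoglobin of club cells in the airway, at 1912 CPM against 23.4 CPM. It rested on 1 droplet of 3037 UMIs that held 2032 of the 2068 Scgb1a1 UMIs and was called a doublet. Without that droplet the members stood at 33.4 CPM.

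Neutrophil surface antigens and secreted proteins were among the genes that followed. Ly6g, the antigen of the standard mouse neutrophil antibody, stood at 76.7 CPM in the Retnlg-led cells and 27.2 CPM in the Cxcl2-led cells (log2 ratio 1.22). Ly6c2, a related surface antigen that is also among the classical monocyte markers summed above, stood at 159 and 49.9 CPM. Wfdc21, a secreted protein of the protease inhibitor family, stood at 831 and 365 CPM (1.17), and Ifitm6, an interferon-induced membrane protein of myeloid cells, at 317 and 140 CPM (1.12). The other named genes on this side were Adpgk (57.3 and 11.5 CPM), a glucokinase that uses ADP, Bmx (78.6 and 27.9 CPM), a tyrosine kinase, R3hdm4 (879 and 381 CPM), Cstdc5, AI467606, Lhx1, Syne1, Abca7, Mtus1 and Rflnb. Cstdc5 belongs to a cluster of near-identical stefin genes and Ly6c2 to the Ly6 family, so reads may be split among copies and their values are uncertain.

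With 10 CPM added, the chemokine gene Ccl3 had the lowest ratio of the genes named here. Without added CPM Il1a lay below it, at −3.22 against −2.54. Ccl3 stood at 97.1 CPM in the Retnlg-led cells and 564 CPM in the Cxcl2-led cells (log2 ratio −2.42), and Ccl4, the neighbouring chemokine gene, at 505 and 1597 CPM (−1.64). Il1a, interleukin-1 alpha, had 9 UMIs in the members (8.32 CPM) against 77.4 CPM (−2.25). Icam1, an adhesion molecule, stood at 35.1 and 161 CPM (−1.92), Clec4n, which encodes Dectin-2, at 46.2 and 241 CPM (−2.16), and Tnf at 27.7 and 94.5 CPM (−1.47). Egr1, an immediate-early transcription factor, stood at 654 and 1901 CPM (−1.53) and Marcksl1 at 618 and 2124 CPM (−1.76). The survival genes Bcl2a1a, Bcl2a1b and Bcl2a1d had log2 ratios of −1.56, −2.12 and −1.79, but these copies are nearly identical and their counts are uncertain. Chka, Ggct, Gpr84 and Ccrl2 completed the 15.

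Of 20 granule genes outside the rule, 19 had at least 50 UMIs. Their median log2 ratio was 0.52, where the median over all 4663 genes was 0.085, 14 were above 0, 3 were more than 2-fold higher and none was more than 2-fold lower. The list summed to 10529.9 CPM in the Retnlg-led cells and 7835 CPM in the Cxcl2-led cells (log2 ratio 0.43, interval 0.39 to 0.46). Lcn2, lipocalin-2, led it at 1745 and 1175 CPM (0.57). Anxa1, annexin A1, stood at 298 and 142 CPM (1.02), Pglyrp1, a peptidoglycan recognition protein, at 652 and 356 CPM (0.86), and Mmp9, gelatinase B, at 459 and 258 CPM (0.81). Slpi, a protease inhibitor, went the other way at 1301 and 1631 CPM (−0.32). The 6 subunits of the NADPH oxidase, which makes superoxide, summed to 2838 and 2443 CPM (0.22), with 0 past 2-fold.

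All 17 NF-κB feedback genes had ratios below 0, and 6 were more than 2-fold lower in the Retnlg-led cells. Over all 4663 genes 1.33% were lower and 0.836% higher, and the counts of every list here stand beside these shares as description. They summed to 6059 CPM against 12691 CPM (log2 ratio −1.07, interval −1.11 to −1.03), with a median ratio of −0.87. Nfkbia, the inhibitor that holds NF-κB in the cytoplasm, stood at 901 and 2475 CPM (−1.45), Tnfaip3, the A20 deubiquitinase, at 209 and 554 CPM (−1.37), and Ier3 at 1024 and 2632 CPM (−1.35). Of 9 measured chemokines and cytokines outside the rule, 6 were more than 2-fold lower and only Ccl6 was above 0, at 2923 and 2179 CPM (0.42). Of 20 measured immediate-early genes, 5 were more than 2-fold lower, none was more than 2-fold higher and 3 were above 0, Fos among them at 2068 and 1688 CPM (0.29). Their median was −0.52 and the ratio of their sums −0.40 (−0.42 to −0.38). All 7 measured chemoattractant receptors outside the rule lay below 0, from Fpr2 (−0.14) to Ptafr, the platelet-activating factor receptor (−0.78), and none passed 2-fold. Cxcr2, a chemoattractant receptor that the rule used to call neutrophils, went the other way, at 1569 and 1225 CPM.

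Pattern recognition genes summed to 6967 and 9155 CPM (log2 ratio −0.39, interval −0.43 to −0.36), with 2 of 13 measured above 0 and 1 more than 2-fold lower. Survival and apoptosis genes summed to 3716 and 4588 CPM (−0.30, −0.36 to −0.25), with 1 of 10 above 0 and 3 more than 2-fold lower, all of them Bcl2a1 copies. Ratios of other lists were closer to 0. Adhesion and homing genes summed to 3915 and 3888 CPM (log2 ratio 0.01, interval −0.04 to 0.06), with 1 of 10 measured, Icam1, more than 2-fold lower, and Cd44 stood at 572 and 870 CPM (−0.60). Interferon response genes gave −0.12 (−0.17 to −0.08), with 0 of 15 past 2-fold. Heat shock genes gave 0.00 (−0.08 to 0.08) and glycolysis and hypoxia genes 0.22 (0.17 to 0.27), led by Gapdh at 1144 and 794 CPM.

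**Figure D3:**
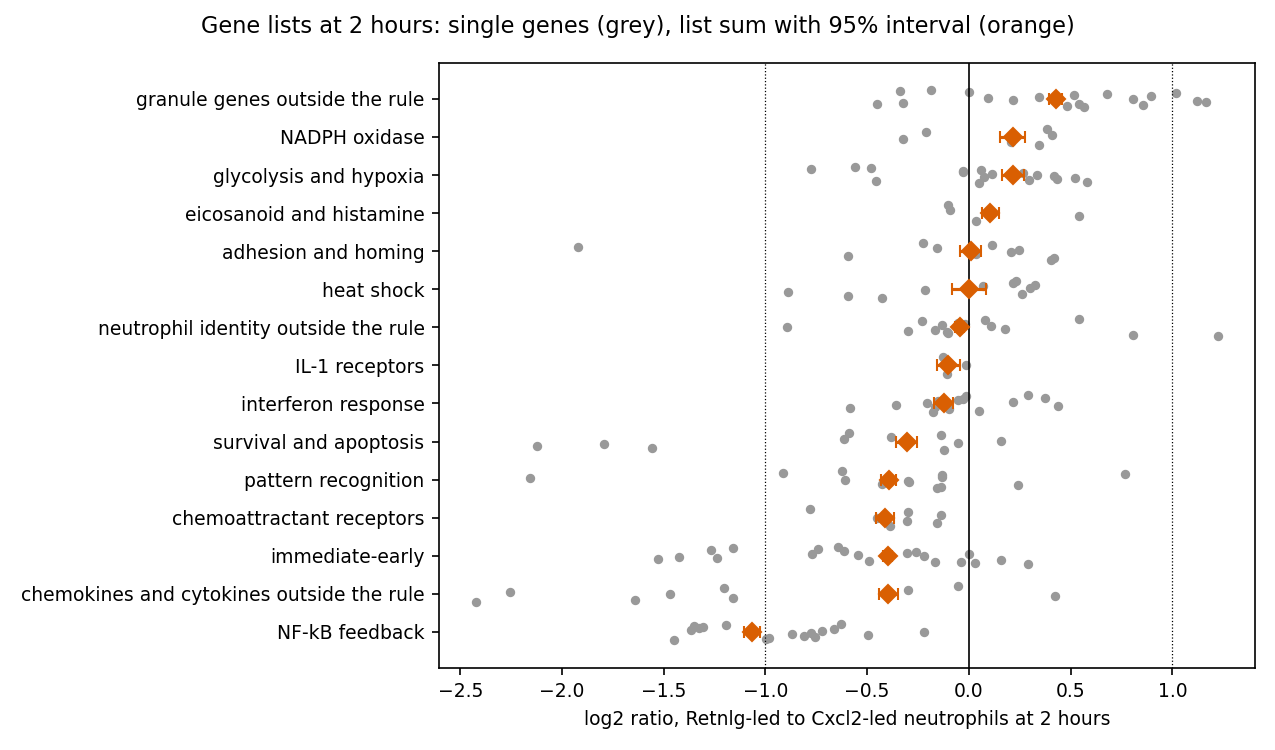
Log2 ratio of Retnlg-led to Cxcl2-led neutrophils at 2 hours (horizontal axis) for 15 gene lists. Grey points are single genes with at least 50 UMIs on CPM plus 10, orange diamonds are ratios of list sums with exact 95% intervals, and dotted lines mark 2-fold. The NF-κB feedback list sits at −1.07 with every gene below 0, and granule genes outside the rule sit at 0.43.

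Surface antibodies were a readout that the rule did not use. The 2-hour library held counts of 277 antibody features, which the study's text does not describe and many of which carry names of human antigens. In the Retnlg-led cells 208 had 0 counts, CD44 held 78.4% of the counts and CD49f 18.0%. CD44, a hyaluronan receptor, gave 108.4 counts per Retnlg-led cell (interval 107.9 to 109.0) and 107.9 per Cxcl2-led cell (107.5 to 108.3), with medians of 87 and 81. Cd44 RNA, by contrast, stood at 572 and 870 CPM (log2 ratio −0.60). CD49f, integrin alpha 6, gave 24.96 and 24.45 counts per cell, although its gene Itga6 had 3 UMIs in either class. In lymphocytes CD44 gave 8.95 and CD49f 6.10 counts per cell.

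Of the 18 antibodies with at least 50 counts over both classes, 0 were more than 1.5-fold higher in the Retnlg-led cells and 6 (33.3%) more than 1.5-fold lower, by their share of antibody counts. With at least 5% of UMIs on the neutrophil genes, 0 of 10 passed, and with cells thinned to 500 UMIs 3 of 16 did. Among those 6 were 2 isotype controls, antibodies without a target, and 4 of the 6 had 12 counts or fewer in the members. The 18 included all 9 isotype controls, whose median log2 ratio was −0.36, where that of all 18 was −0.29. ITGB7, integrin beta 7, gave 3.35 counts per Retnlg-led cell and 5.06 per Cxcl2-led cell (log2 ratio of counts per cell −0.60, interval −0.65 to −0.55), against 17.9 in lymphocytes. Mac2, which is galectin-3, gave 0.446 and 0.753 counts per cell (−0.76, −0.89 to −0.62), whereas RNA of its gene Lgals3 went the other way, at 227 and 127 CPM (0.79). The 9 isotype controls gave between 0.00723 and 0.276 counts per Retnlg-led cell, so Mac2 lay little above them. Antibodies named CD177, CD11b, CD14, CD16, CD18, CD24 and CD54 had 0 counts in the members, although the RNA of Itgam, which encodes CD11b, stood at 568 CPM.

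**Figure D4:**
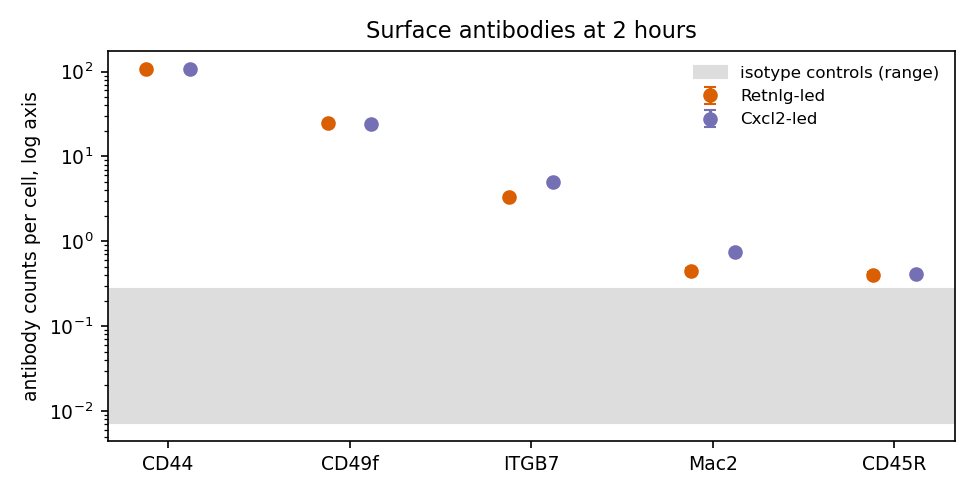
Mean antibody counts per cell (log axis) in Retnlg-led and Cxcl2-led neutrophils at 2 hours for the 5 antibodies with the most counts apart from isotype controls, with exact 95% Poisson intervals that are mostly smaller than the points. The grey band spans the 9 isotype controls in the Retnlg-led cells, 0.00723 to 0.276 counts per cell. CD44 and CD49f lie level, and ITGB7 and Mac2 lie lower in the Retnlg-led cells.

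The members that held Ngp, Camp or Ltf were compared with the 977 that did not. Of 2368 genes with at least 50 UMIs, 13 (0.549%) were more than 2-fold higher in them and 26 (1.10%) more than 2-fold lower. The droplet rich in Scgb1a1 fell on their side. Next came Prok2, a chemokine-like peptide made by neutrophils, at 189 and 36.2 CPM (log2 ratio 2.11), Adpgk at 132 and 31.2 CPM (1.78), and Cd74, the invariant chain, at 585 and 192 CPM (1.56). Ifitm6 stood at 570 and 228 CPM (1.28). Lower genes included Fgl2, a fibrinogen-like protein, at 196 and 472 CPM (−1.23), and Rgs1, a regulator of G protein signalling, at 35.6 and 129 CPM (−1.60). The B cell and T cell markers also stood higher, at 235 and 228 CPM against 150 and 154 CPM, and their part in these differences was not tested. Granule genes outside the rule summed to 12455 and 9856 CPM (0.34, interval 0.28 to 0.40). The split by detection went with depth, since the 268 members held 280520 UMIs in all and the 977 held 801161, and the part of depth was not tested.

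The same rule found 152 cells in the naive library and 1103 at 3 days. They were 43.9% of 346 naive neutrophils (interval 38.6% to 49.3%) and 50.4% of 2189 at 3 days (48.3% to 52.5%), against 29.2% at 2 hours. These shares moved with depth. At 3 days the share was 14.3% of 49 neutrophils with 500 to 1000 UMIs, 30.2% of 53 with 1000 to 2000, 35.5% of 653 with 2000 to 4000 and 59.1% of 1434 above that. At 2 hours it was 23.2% of 310 neutrophils below 500 UMIs, and 31.0%, 27.6% and 18.3% over the first 3 of these ranges. In naive lungs it was 21.7% of 23 neutrophils with 2000 to 4000 UMIs (interval 7.46% to 43.7%) and 46.5% of 316 above that. The order of the libraries therefore differed between depth ranges, with 2 hours above 3 days at 500 to 1000 UMIs (intervals 29.3% to 32.8% and 5.94% to 27.2%) and below it at 2000 to 4000 UMIs (12.7% to 25.1% and 31.9% to 39.3%).

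The make-up of the granule UMIs also differed between libraries. The rule used these genes in every library, so their levels are description here too. A cell passed only with more granule than activation UMIs, and the activation genes stood at 9238 CPM in the 2-hour members, 2336 at 3 days and 1843 in naive members. Ngp held 23.1% of the granule UMIs in naive members, 4.00% at 2 hours and 1.43% at 3 days, and Camp 23.1%, 0.325% and 0.546%. Retnlg held 42.6%, 84.4% and 92.3%. In summed counts Ngp stood at 4369 CPM in naive members, 1060 CPM at 2 hours and, 3 days after reperfusion, 170 CPM. Camp stood at 4368, 86.0 and 64.8 CPM. In the naive library these sums rested on few cells, since Camp was detected in 14 of 152 members and 1 of them held 2013 of the 4562 Camp UMIs. Mmp8 was highest at 2 hours, at 2775 CPM against 799 in naive members and 560 at 3 days, and so was Retnlg, at 22361.5, 8056 and 10961 CPM. With every cell thinned to 500 UMIs, Mmp8 was detected in 65.8% of members at 2 hours, 25% in naive lungs and 18.6% at 3 days, compared with 77.3%, 78.9% and 63.9% unthinned. Ngp was detected in 17.2%, 8.55% and 1.45% of thinned members, in the same order of libraries.

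**Figure D5:**
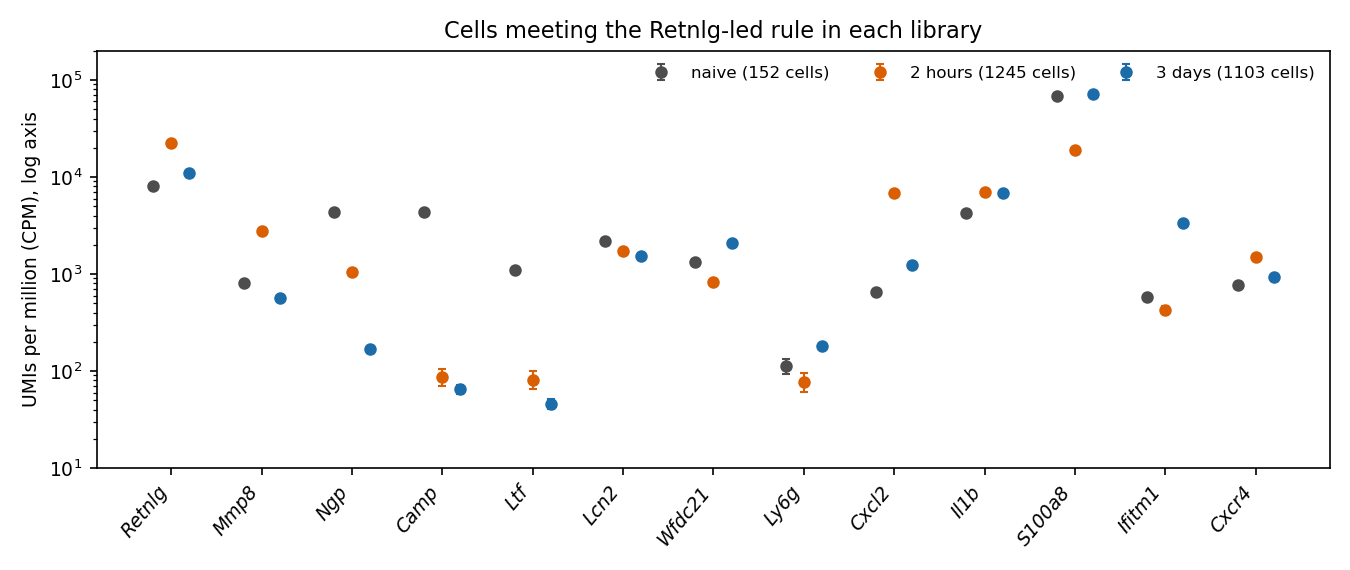
Summed level (CPM, log axis) of 13 genes in the cells that met the rule in the naive, 2-hour and 3-day libraries, with exact 95% Poisson intervals that are mostly smaller than the points. Retnlg, Mmp8 and Cxcl2 lie highest at 2 hours, S100a8 lies lowest there at 19160 CPM, and Ngp lies lower at 2 hours than in naive members and lowest at 3 days.

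The 2-hour members were compared with the Retnlg-led cells at 3 days. Of 6154 genes with at least 50 UMIs, 269 (4.37%) were more than 2-fold higher at 2 hours and 347 (5.64%) more than 2-fold lower. With rule, ribosomal protein and mitochondrial genes left out of the total, the split was 201 and 555 and the median log2 ratio of all genes moved from −0.08 to −0.23. With the log2 ratio of lymphocytes in the same libraries subtracted gene by gene, an alternative chosen after seeing the data, it was 495 and 149. Among 11407 genes the lymphocytes themselves had 325 (2.85%) higher and 665 (5.83%) lower, and the Cxcl2-led cells had 196 (2.95%) and 665 (10%) of 6651. Differences between these libraries were therefore also present outside the Retnlg-led cells. Markers of T cells stood at 173 CPM in the 2-hour members and 20.7 CPM at 3 days, led by Il7r, and those of B cells at 172 and 141 CPM. Markers of macrophages stood at 149 and 512 CPM, with 7 of 7 measured more than 2-fold lower at 2 hours, those of dendritic cells at 30.5 and 169 CPM, and those of classical monocytes at 523 and 793 CPM, with 4 of 8 more than 2-fold lower. The part of these markers in the differences was not tested.

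The levels of the neutrophil and activation genes of the rule are given next as description, since the rule used them. S100a8 stood at 19160 CPM in the 2-hour members, 70954 at 3 days and 68368 in naive members. S100a9 stood at 31691, 97481 and 78478 CPM. Both subunits had their lowest level in the 2-hour members, and in the Cxcl2-led cells S100a8 stood at 12165, 32349 and 32421 CPM. Cxcl2 ran the other way, at 6800 CPM in the 2-hour members, 1246 at 3 days and 649 in naive members, and so did Actb, at 57442, 14203 and 14780 CPM. Il1b, interleukin-1 beta, hardly differed between 2 hours and 3 days, at 7058 and 6845 CPM, and stood at 4232 CPM in naive members.

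The list of 21 interferon response genes summed to 4842 CPM in the 2-hour members and 10298 CPM in those of 3 days (log2 ratio −1.09, interval −1.13 to −1.05), with 4 of 19 measured genes more than 2-fold lower, where 5.64% of all genes were, and 3 above 0. Most of that sum was Ifitm1 and Ifitm2, membrane proteins that restrict virus entry. In the Cxcl2-led cells the list gave −0.90 and Ifitm1 −2.75, and in lymphocytes the list gave −0.61. Ifitm1 stood at 428 CPM at 2 hours, 3382 at 3 days and 573 in naive members, and Ifitm2 at 2239, 3755 and 1574 CPM. Isg15, a ubiquitin-like effector of the interferon response, was nearly level at 433 and 415 CPM. Against naive members the list gave −0.03 (−0.08 to 0.03).

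Chemokine and cytokine genes went both ways between 2 hours and 3 days. Of 12 measured outside the rule, 3 (Ccl3, Ccl4 and Vegfa) were more than 2-fold higher at 2 hours, 2 (Ccl2, with 0 UMIs, and Il6, with 1 UMI) more than 2-fold lower and 5 above 0, with a median log2 ratio of −0.19. Ccl4 stood at 505 CPM at 2 hours, 119 at 3 days and 51.7 in naive members, and Ccl3 at 97.1, 34.4 and 31.6 CPM. The sum of the immediate-early genes was 18522 CPM, against 10839 at 3 days (log2 ratio 0.77, interval 0.75 to 0.80), with 4 of 20 measured more than 2-fold higher (4.37% of all genes) and 1 more than 2-fold lower (5.64% of all genes). Fos stood at 2068, 752 and 261 CPM at 2 hours, at 3 days and in naive members, and Junb at 3520, 1473 and 1074 CPM. The same list gave 0.57 in the Cxcl2-led cells and 0.86 in the lymphocytes. Hdc stood at 4036, 2195 and 2007 CPM, and Alox5ap, which serves leukotriene synthesis, at 2463, 1487 and 897 CPM.

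The sum of the granule genes outside the rule was 10529.9 CPM, against 17584 at 3 days (log2 ratio −0.74, interval −0.77 to −0.71) and 15779 CPM in naive members (−0.58, −0.62 to −0.55), and 8 of 19 measured were more than 2-fold lower than at 3 days (5.64% of all genes) and 7 of 20 than in naive members (18.8% of all genes). Wfdc21 stood at 831, 2068 and 1337 CPM at 2 hours, at 3 days and in naive members, Mmp9 at 459, 1348 and 1086 CPM, Lyz2, lysozyme, at 805, 2560 and 2782 CPM, and Anxa1 at 298, 1045 and 736 CPM. Lcn2 did not follow them, at 1745, 1540 and 2174 CPM. The list gave −0.64 against 3 days in the Cxcl2-led cells. The lymphocytes gave −3.40, a sum led by Lyz2.

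At the ends of the 3-day comparison, the genes named by rule were partly those of the whole library. Higher at 2 hours after Scgb1a1 came Bc1, Lars2, Mt1, Schip1, Crispld2, Pdcd4, Lig3, Fkbp5 and Abhd2. Lars2, the mitochondrial leucyl-tRNA synthetase, stood at 6627 and 721 CPM (log2 ratio 3.18), Mt1, metallothionein 1, at 422 and 40.4 CPM (3.10), and Crispld2 at 344 and 38.2 CPM (2.87). Gm42418, which overlaps a ribosomal RNA repeat, stood at 55891 CPM in the 2-hour members, 19222 at 3 days and 4983 in naive members. It counts toward every CPM total, and its part in these ratios was not tested. In the Cxcl2-led cells Lars2 gave 2.97, Mt1 2.83 and Crispld2 3.00, and in lymphocytes Bc1 gave 4.16 and Pdcd4 3.28. Lower at 2 hours were Steap4 (3.70 and 274 CPM, −4.37), a metalloreductase, Wfdc17 (259 and 4572 CPM, −4.09), Fn1, S100a4, Ifitm1, Adgre1, Vim, Fabp5, Mgp and Saa3. Fn1 and Adgre1 each had 1 UMI and Mgp had 0 in the 2-hour members. In the Cxcl2-led cells Steap4 gave −3.67 and Wfdc17 −3.43, and in lymphocytes Fn1 gave −5.73 and S100a4 −3.50.

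Naive members were read with more reserve, because that library was counted with Cell Ranger 7.1.0, and version 7 counts intronic reads by default where version 6 does not. The sources used here do not say which setting was used, and it would bear on every naive CPM and its total. Of 3807 genes with at least 50 UMIs, 306 (8.04%) were more than 2-fold higher in the 2-hour members and 714 (18.8%) more than 2-fold lower, and in lymphocytes 330 (2.94%) and 1997 (17.8%) of 11221. Cmss1 and Gphn were among the 10 lowest genes in both, at 0.924 CPM each (1 UMI) in the 2-hour members against 738 and 404 CPM in naive members. The effect of the software on these values was not tested. Markers of T cells stood at 173 CPM in the 2-hour members and 30.6 CPM in naive members, proliferation genes at 11.1 and 260 CPM, and azurophil and precursor genes at 4.62 and 46.0 CPM, and their part was not tested. With cells thinned to 500 UMIs the split was 290 and 279, without Retnlg in the granule sum 246 and 271, and with the lymphocyte ratio subtracted 444 and 181. Among the listed genes, Cxcr4, a chemokine receptor, stood at 1480 CPM at 2 hours, 775 in naive members and 933 at 3 days. In lymphocytes it stood at 1425, 132 and 231 CPM, so that it was higher at 2 hours outside neutrophils as well.

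The division between Retnlg-led and Cxcl2-led cells was also made in the other libraries, where it is equally set by the rule. NF-κB feedback genes gave log2 ratios of −1.07 at 2 hours and −1.34 at 3 days, with 6 and 15 of 17 more than 2-fold lower. Granule genes outside the rule gave 0.43 and 0.53. Of 7333 genes at 3 days, 23 (0.314%) were more than 2-fold higher in the Retnlg-led cells and 175 (2.39%) lower, and Ly6c2, Ly6g, Cstdc5 and Wfdc21 were among the 10 highest there as they were among the 15 highest at 2 hours. Ly6g gave 1.22 at 2 hours and 1.86 at 3 days. In naive lungs 55 (1.43%) of 3833 genes were higher and 90 (2.35%) lower, and Chil3, a chitinase-like protein, stood at 802 and 44.1 CPM (3.91), against 35.1 and 22.3 CPM at 2 hours. Chil3 also stood at 936 CPM in naive lymphocytes and 7.45 CPM in those at 2 hours.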

How the data were processed

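Single-cell RNA-seq libraries of leukocytes from naive lungs and from grafts 2 hours and 3 days after reperfusion were analysed from the authors' deposited counts, which were unnormalised UMI counts per gene or antibody and droplet. Per the file headers the graft counts were made with Cell Ranger 6.0.0 and those of naive lungs with 7.1.0, and the submitters' notes name Cell Ranger 6, Seurat 4 and build mm10. The labels and the methods name different capture kits, so the chemistry is uncertain.

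UMIs were summed over the cells of a class, scaled to CPM and compared as log2 ratios after adding 10 CPM, for genes with at least 50 UMIs over both classes. No test was made, since there was 1 library per condition. Intervals are 95% and exact (Poisson for sums, Clopper-Pearson for shares, conditional binomial for ratios without the added CPM), and cover counting error only. Antibodies were called past 1.5-fold on their share of antibody counts. A floor of 3 counts per class was used for zeros. Thinning drew 500 UMIs per cell (seed 11) and left out shallower cells. Doublets were called per library with Scrublet (scanpy 1.11.5) and kept, apart from 1 alternative. Of the genes outside the rule, the text names listed genes and, leaving out gene models and mitochondrial genes, the 15 highest and lowest ratios between the 2-hour classes and the 10 highest and lowest between 2 hours and 3 days. Genes named for the other contrasts, and the antibodies, were picked from the same ranked tables after their values were seen. Members and gene lists were chosen with earlier results of these data known. In simulated counts for the 2-hour classes, 200 of 4661 genes raised by a log2 ratio of 2 were recovered at a median of 1.93. The raised genes were drawn from those with at least 200 UMIs, and the counts were Poisson sums without spread between cells. Raised genes with fewer UMIs, or with UMIs held by few cells, were therefore not covered by it. Python 3.11.15, numpy 2.4.6, scipy 1.17.1 and pandas 2.3.3 were used. The alternatives changed the neutrophil threshold, cell filters, doublets, Retnlg, the margin of the rule, depth, cells with other markers, the total, averaging, the added CPM and the UMI minimum.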

Additional observations from a re-analysis of the deposited data

Results flagged for a closer look

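Several lists lay on opposite sides of 0 in different libraries when Retnlg-led cells were compared with Cxcl2-led cells. There was 1 library per condition, so the difference between libraries was not tested for any of them. Interferon response genes gave a log2 ratio of sums of −0.12 at 2 hours and 0.070 at 3 days. Ribosomal protein genes gave 0.096 at 2 hours, −0.15 at 3 days and −0.17 in naive lungs, and mitochondrially encoded genes 0.23 at 2 hours and −0.22 at 3 days. Eicosanoid and histamine genes gave 0.11 at 2 hours and −0.27 in naive lungs. Markers of other cell types did the same. Those of B cells gave 0.30 at 2 hours and −0.37 at 3 days, those of T cells 0.99 and −0.69, and those of classical monocytes 0.29 at 2 hours, −0.43 at 3 days and −0.37 in naive lungs.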

How the results depend on the processing

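With 1 pooled library per condition, no interval covers variation between mice, and the 2-hour library was the shallowest. In the tally that follows, the filter to fewer than 6000 genes and 25000 UMIs left every value within the 2-hour library unchanged. Counts of genes were scored on their total only. The 3-day count therefore stayed within the limits when its split of 269 higher and 347 lower became 495 and 149. Neither list ratio recomputed here (granule genes outside the rule and NF-κB feedback genes) changed sign under any alternative, and of 81 values under alternatives 57 stayed within the limits (1.5-fold for a count, the value's own 95% interval for a share or ratio) and 24 moved. With the granule sum taken without Retnlg, members were 6.38% of the neutrophils instead of 29.2%, 35.3% of them held Ngp, Camp or Ltf instead of 21.5%, 309 genes instead of 101 passed 2-fold against Cxcl2-led cells, granule genes outside the rule gave 0.54 instead of 0.43, NF-κB feedback genes −1.43 instead of −1.07, and 517 genes (246 higher, 271 lower) instead of 1020 passed against naive. With 5% of UMIs on the neutrophil genes, members were 40.0%, the granule list gave 0.35 and 0 antibodies passed 1.5-fold instead of 6. A margin of 3 UMIs gave 25.1% members, 24.3% with Ngp, Camp or Ltf, 0.47 for the granule list and −1.14 for NF-κB feedback genes. Thinning to 500 UMIs gave 17.2% with Ngp, Camp or Ltf, −1.02 for NF-κB feedback genes, 569 genes (290 higher, 279 lower) against naive and 3 antibodies. Adding 1 CPM instead of 10 gave 228 genes against Cxcl2-led cells and 1215 instead of 616 against 3 days. Adding 50 CPM gave 27 (4 higher, 23 lower), 204 and, against naive, 507. With the lymphocyte ratio subtracted, 625 passed against naive. Without a minimum count, 40 antibodies passed. The causes of these changes were not tested. No paired analysis was possible because each condition had 1 library.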
